A study of Homo sapiens with 8 samples.

Results

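RNA levels of the G401 line engineered to express SMARCB1 were compared with those of the G401 line engineered to express GFP, both without doxycycline. G401 is a cell line derived from a renal rhabdoid tumor and has no functional SMARCB1. The comparison took 4 of the 8 RNA libraries of the study, chosen by their labels: 2 libraries of the SMARCB1 line and 2 of the GFP line, all given DMSO for 12 h. The other 4 libraries are the same lines given 0.1 µg/ml doxycycline for 12 h, which switches on the SMARCB1 or GFP transgene (Tet-On system). They are used here as further libraries of each line and in the shared estimate of the spread. They also serve in a test of how the line difference changed with doxycycline. Both lines grew in McCoy's 5A medium with serum, and both derive from the SMARCB1-null parental line. Whether each line is a single clone or a pool is not given in the sources used here, nor is it stated that the libraries of a group came from separate cultures, so that p-values measure the spread between these libraries, which may be technical.

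SMARCB1 belongs to the core of the SWI/SNF complexes, which move nucleosomes and keep enhancers and promoters accessible, in opposition to the Polycomb complexes, which hold developmental genes silent. Rhabdoid tumors arise when SMARCB1 is lost, carry few other mutations, and keep mesenchymal and neural crest features. Sublines that are grown apart can come to differ in which genes they transcribe, and such a difference can be present without induction of a transgene.

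Of 69215 genes listed in each library, 15931 had enough reads to be tested, and 5105 of them (32.0%) differed between the lines at an adjusted p under 0.05 in edgeR's quasi-likelihood test with Benjamini-Hochberg adjustment, here termed "called". A total of 2600 genes (16.3%) were higher and 2505 (15.7%) lower in the SMARCB1 line. Most differences were small, with a median size of 0.59 on the log2 scale among called genes, while 1662 genes (10.4%) were called and differed by more than 2-fold, 788 higher and 874 lower. All log2 differences below are the SMARCB1 line minus the GFP line, levels are CPM, the reads of a gene as a rate over the reads of its library scaled by TMM, and pairs of values give replicate 1 and then replicate 2 (n = 2 libraries per group). The median difference over all tested genes was 0.01.

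The libraries held 29632090 to 37597477 reads assigned to genes, of which 18.9 to 27.9% were mitochondrially encoded, SMARCB1 DMSO replicate 1 being the highest. The 2 lines separated on the first principal component, which held 88.8% of the variance. Among 9948 genes with at least 5 CPM, 9 differed by more than 2-fold between the GFP DMSO libraries and 16 between the SMARCB1 DMSO libraries, against 595 to 635 between a library of one line and a library of the other. SMARCB1 itself had 0 reads in both GFP DMSO libraries and 10 and 21 reads in the SMARCB1 DMSO libraries (0.49 ± 0.21 CPM, SD, n = 2), at least 12-fold higher over a floor of 3 reads per group (adjusted p = 9.5e-06). Exons of SMARCB1 overlap those of DERL3, so that single reads there are uncertain. Whether the reads come from the transgene without doxycycline was not tested. A basal level of SMARCB1 and other differences between the sublines cannot be told apart in this design.

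**Figure D1:**
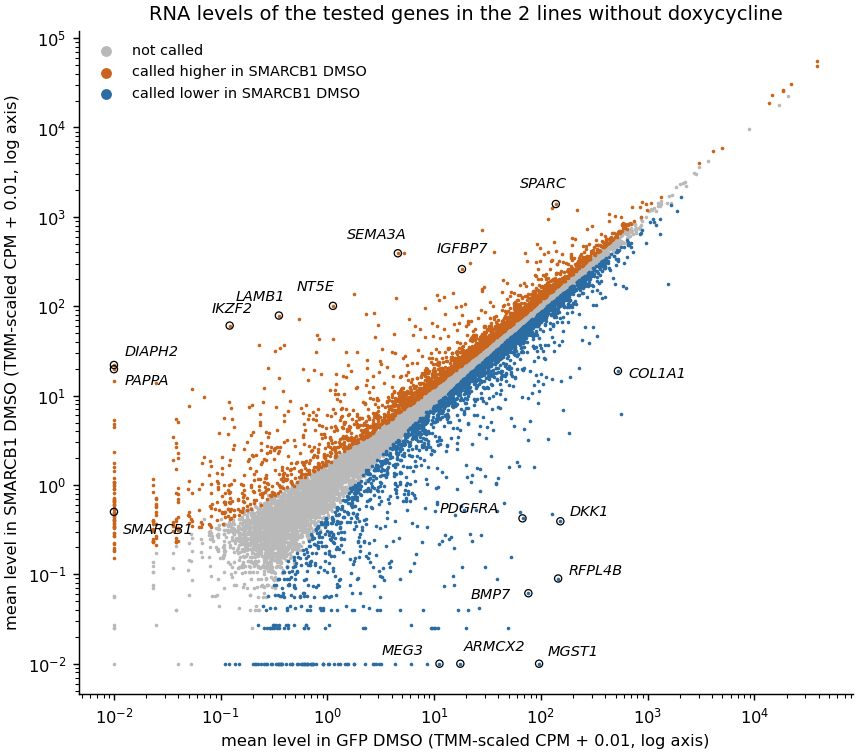
Mean level of each tested gene in the GFP DMSO libraries (horizontal) and in the SMARCB1 DMSO libraries (vertical), in CPM plus 0.01 on log axes, with n = 2 libraries per group and called genes in colour. Most genes lie along the diagonal, while MGST1, at 96.1 CPM in the GFP line, lies on the lower edge and DIAPH2, at 22.0 CPM in the SMARCB1 line, on the left edge.

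The clearest differences were genes that gave almost no reads in one line. By the rule of at most 3 reads over both DMSO libraries of one line and at least 5 CPM in the other, 27 genes stood apart, 9 of them nearly without reads in the GFP line and 18 in the SMARCB1 line, and 4 and 5 of these had 0 reads. In bulk RNA, fewer cells with a transcript and less transcript per cell cannot be told apart, but a group at 0 reads sets a limit for the whole culture. MGST1, PAPPA and ARMCX2 are the defining markers of the comparison, and each gave reads in both DMSO libraries of one line and in neither of the other. Their promoter sequences are shown because these genes mark the lines and are read in one line and not in the other. Each is the 250 bases before the start in RefSeq (GRCh38.p14), written 5′ to 3′ on the strand of the gene, with the dinucleotide CG, which is the site of DNA methylation and reads the same on both strands, in capitals.
MGST1, chr12:16346865-16347114, plus strand: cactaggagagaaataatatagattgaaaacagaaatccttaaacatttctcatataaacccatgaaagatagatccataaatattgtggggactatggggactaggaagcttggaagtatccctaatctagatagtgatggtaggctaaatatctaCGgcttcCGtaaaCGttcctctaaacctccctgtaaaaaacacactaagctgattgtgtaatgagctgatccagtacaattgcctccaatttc
ARMCX2, chrX:101659851-101660100, minus strand: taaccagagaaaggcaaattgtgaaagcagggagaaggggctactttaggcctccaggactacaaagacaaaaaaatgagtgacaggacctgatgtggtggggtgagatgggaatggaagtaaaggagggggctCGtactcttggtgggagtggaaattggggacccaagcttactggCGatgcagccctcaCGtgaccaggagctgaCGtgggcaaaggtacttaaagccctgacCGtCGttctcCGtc
PAPPA, chr9:116153541-116153790, plus strand: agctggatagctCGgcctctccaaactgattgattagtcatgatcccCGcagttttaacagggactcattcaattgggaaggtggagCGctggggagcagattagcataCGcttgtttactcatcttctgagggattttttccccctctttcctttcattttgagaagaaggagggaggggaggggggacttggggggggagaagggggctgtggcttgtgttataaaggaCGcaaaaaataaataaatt
The window of MGST1 holds 3 CG, that of ARMCX2 7 and that of PAPPA 5, beside a median of 11 over the 34961 windows in the table, of which 94% hold at least 1. DNA methylation was not measured here, and RefSeq lists 3 starts for MGST1, of which the one farthest upstream is shown and the windows of the other two hold 12 and 19 CG. A count of CG over all 27 genes is void, since only 20 of them (74.1%) had a sequence in the table.

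MGST1 encodes a microsomal glutathione transferase that reduces lipid peroxides, and it lies at chr12:16347142-16609259. It had 3331 and 3592 reads in the GFP DMSO libraries (96.1 ± 3.57 CPM, SD, n = 2) and 0 and 0 in the SMARCB1 DMSO libraries, at least 1990-fold lower (adjusted p = 7.69e-19). The groups did not overlap, and the Dox libraries kept the split, with 3076 and 3277 reads in the GFP line and none in the SMARCB1 line. ARMCX2, a mitochondrial armadillo-repeat protein gene of the X chromosome (chrX:101655281-101659850), had 605 and 661 reads in the GFP DMSO libraries and none in the SMARCB1 DMSO libraries, at least 363-fold lower. PAPPA, a secreted metalloprotease that cuts IGF-binding proteins and so frees IGF (chr9:116153791-116402321), ran the other way, with 0 reads in both GFP DMSO libraries and 580 and 645 in the SMARCB1 DMSO libraries (19.7 ± 0.24 CPM, SD, n = 2), at least 474-fold higher. PAPPA was not fully silent in the GFP line, since the GFP Dox libraries held 2 and 5 reads.

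Of the other genes nearly without reads in the SMARCB1 line, MEG3 and MEG8, imprinted noncoding RNAs of chromosome 14 that are transcribed from the maternal copy, had 373 and 436 and 279 and 336 reads in the GFP DMSO libraries and none in the SMARCB1 line, at least 232-fold and 177-fold lower. Both were also at 0 in the SMARCB1 Dox libraries. BMP7, a bone morphogenetic protein needed for kidney formation, had 2479 and 3041 reads in the GFP DMSO libraries and 3 and 0 in the SMARCB1 DMSO libraries, a ratio of 1580 (95% counting interval 542 to 7690). SLFN11, which blocks replication after DNA damage, had 681 and 742 reads against 0 and 1, ITGB6, an epithelial integrin chain, 670 and 836 against 0 and 2, and GLUL, glutamine synthetase, 347 and 369 against 0 and 1. The set further held the zinc finger gene ZNF69 (219 and 216 reads against 0 and 0), the unconventional myosin MYO3B, the centrosomal gene CEP41, the mucin MUC4, the exchange factor TIAM1, the p53 target RPRM, the postsynaptic gene DLGAP2, and MXRA8, ABTB3 and ANKRD63. DLGAP2 shares exon sequence with ERICH1, so that its reads are uncertain.

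On the other side, DIAPH2, a formin that nucleates actin filaments, lay at chrX:96684712-97604997 and had 0 reads in the GFP DMSO libraries and 598 and 774 in the SMARCB1 DMSO libraries (22.0 ± 2.09 CPM, SD, n = 2), at least 531-fold higher. PAQR5, a membrane progesterone receptor gene, had 0 and 0 against 150 and 179 reads, at least 127-fold higher. FLG-AS1, an antisense RNA whose exons overlap FLG, had 0 and 0 against 389 and 521. COL4A6, a basement membrane collagen chain, had 3 and 0 against 385 and 349 reads, a ratio of 284 (95% counting interval 96.8 to 1380). The muscle myosin MYH2 (1 and 1 against 151 and 185), the lipogenic regulator MID1IP1 (1 and 0 against 425 and 438) and ZNF320 (1 and 2 against 246 and 222) belonged to the same set. The Dox libraries of the line with few reads held at most 23 reads for any of these genes, with ABTB3 and GLUL the highest (23 and 22 reads over both libraries).

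**Figure D2:**
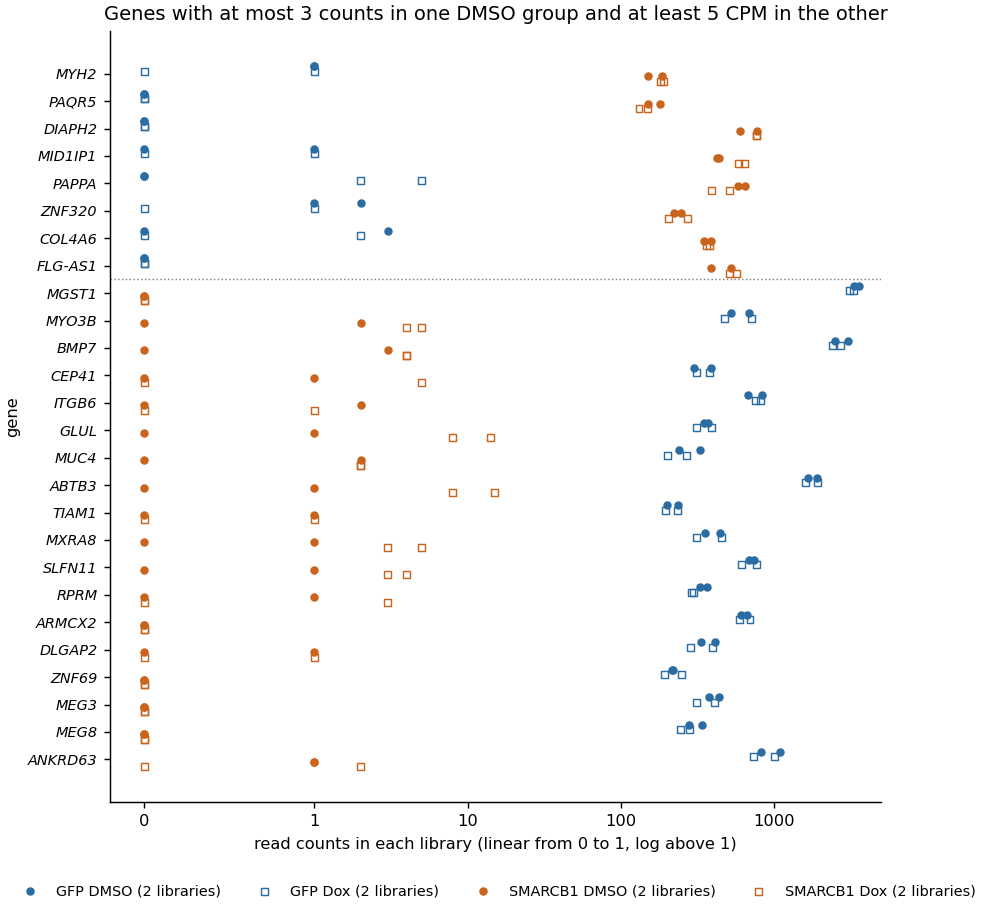
Read counts of 26 of the 27 genes in each of the 8 libraries (horizontal axis, linear from 0 to 1 and logarithmic above), with filled circles for DMSO and open squares for Dox libraries, blue for the GFP and orange for the SMARCB1 line. In each gene the libraries of one line sit at 0 to 15 reads and those of the other at 131 or more, in DMSO and in Dox alike.

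The 10 called genes of largest fitted difference in each direction added a few that kept some reads in the line where they were low. IKZF2, which encodes the zinc finger factor Helios, had 0.118 and 0.104 CPM in the GFP line and 64.6 and 56.8 CPM in the SMARCB1 line (log2 difference 9.05, SE 0.21, adjusted p = 5.53e-19). FRY, a cytoskeletal scaffold, rose from 0.148 and 0.287 to 41.1 and 33.1 CPM, and NLGN1, a synaptic adhesion protein, from 0.474 and 0.599 to 74.8 and 70.9 CPM. RFPL4B, a ring finger gene of chromosome 6, fell from 139 and 151 CPM to 0.0686 and 0.091 CPM (log2 difference -10.75). Across all 20 genes the SE lay between 0.16 and 0.48 and the largest adjusted p was 2.05e-13. The SE here and below is derived from the log2 difference and the test statistic. Where a line had few or no reads it can be smaller than the counting error and is no measure of precision. The remaining genes of the 20 are among those of few or no reads above, or are the matrix genes LAMB1 and COL4A5. A fitted difference for a gene at 0 reads depends on the prior count and is no bound.

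The gene lists used here and below were chosen with earlier results of these data known, so their shares of calls are a description and not a test. In the lists of the extracellular matrix, genes were called more often than the background of 32.0%, in both directions. Of 37 tested laminin and matrix glycoprotein genes, 16 were higher and 15 lower (83.8% called, median difference 0.11), and of 21 tested collagens 4 were higher and 7 lower (52.4%, median -0.29). LAMB1, the beta chain shared by many laminins, had 0.474 and 0.208 CPM in the GFP line and 84.8 and 72.5 CPM in the SMARCB1 line (log2 difference 7.87, SE 0.19, adjusted p = 1.03e-18). LAMA4, a laminin alpha chain of vessel basement membranes, went the other way, from 81.6 and 89.3 CPM to 1.30 and 1.82 CPM (-5.76). Among collagens, the basement membrane chain COL4A5 rose from 0.414 and 0.208 to 37.3 and 25.6 CPM (6.67), beside its head-to-head neighbour COL4A6 above. COL1A1, the main fibrillar collagen of mesenchyme, fell from 482 and 571 CPM to 21.0 and 16.7 CPM (-4.81, SE 0.12, adjusted p = 3.28e-18). COL9A1, a cartilage collagen, had 22.0 and 22.7 CPM against 0.24 and 0.212 CPM (-6.61). SPARC, a secreted collagen-binding glycoprotein, rose from 156 and 120 CPM to 1588 and 1195 CPM (3.34), and FBN2, a fibrillin of embryonic microfibrils, fell from 34.4 and 43.1 to 0.0343 and 0.121 CPM (-8.85). COL11A1, the collagen of highest level per exon length, did not pass the test (1413 and 1651 against 1593 and 1280 CPM, -0.09, adjusted p = 0.572). Exons of LAMB1 overlap DLD and those of FBN2 overlap SLC27A6, which leaves their low values uncertain.

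Adhesion receptors and matrix proteases showed more higher than lower calls. Of 16 tested integrin chains 7 were higher and 3 lower (62.5% called, median 0.44), of 38 matrix proteases and inhibitors 16 and 7 (60.5%, 0.24), and of 20 cadherins and unclustered protocadherins 12 and 2 (70%, 0.48). The higher proteases include the marker PAPPA. ITGA6, a laminin receptor chain, rose from 8.50 and 10.4 to 64.5 and 64.0 CPM (2.76), and ITGB5, a vitronectin receptor chain, from 9.62 and 8.34 to 29.3 and 23.3 CPM (1.55). ITGA9 fell from 4.38 and 6.96 to 0.926 and 0.637 CPM (-2.87), and ITGAV, the integrin chain of highest level per length, from 628 and 685 to 532 and 435 CPM (-0.44). ADAMTS9, a proteoglycan-cutting protease, rose from 0.859 and 0.703 to 53.6 and 41.5 CPM (5.93), and ADAM19 from 2.84 and 1.77 to 92.0 and 69.9 CPM (5.15). The lowest difference among the 38 was -4.65. HTRA1, a secreted serine protease that is counted in the IGF axis list below and not among the 38, fell from 17.2 and 20.5 to 0.686 and 0.334 CPM (-5.23). The atypical cadherin FAT1 stood at 969 and 1070 against 1255 and 1074 CPM and did not pass the test (0.19), except without SMARCB1 DMSO replicate 2. The clustered protocadherins, whose genes share exons, gave only 3 calls among 21 tested (14.3%), 1 higher and 2 lower, and this count lay between 1 and 7 under other settings.

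Several surface proteins set the lines apart by more than 10 CPM. Of 55 tested surface antigens 20 were higher and 13 lower (60.0%, median 0.17). NT5E, the ecto-enzyme CD73 that makes adenosine, had 1.24 and 0.99 CPM in the GFP line and 108 and 94.1 CPM in the SMARCB1 line (6.50, SE 0.13, adjusted p = 1.82e-19). MCAM (CD146), a marker of vessels and pericytes, had 16.5 and 14.6 CPM against 0.24 and 0.667 CPM (-5.05), although exons overlap CBL. MME (CD10), the surface antigen of highest level per length, had 1842 and 1864 against 2324 and 2024 CPM and missed the threshold (0.23, adjusted p = 0.0506), but passed it with DESeq2, without a filter, with mitochondrial genes left out, with the replicate block and without SMARCB1 DMSO replicate 2. Of 31 tested receptor tyrosine kinases 11 were higher and 9 lower (64.5%, median 0.14). PDGFRA, the receptor for platelet-derived growth factor A that marks mesenchymal progenitors, fell from 65.0 and 69.5 CPM to 0.583 and 0.243 CPM (-7.37, SE 0.17, adjusted p = 8.16e-19). MET, the hepatocyte growth factor receptor, had 1.63 and 0.964 against 7.48 and 3.28 CPM (2.05). FGFR2, the most abundant kinase per length, had 624 and 618 against 728 and 641 CPM and did not pass the test (0.14).

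Secreted guidance cues moved far in both directions. Of 42 tested axon guidance genes 18 were higher and 10 lower (66.7%, median 0.37). SEMA3A, a secreted semaphorin that repels axons, rose from 4.74 and 4.38 CPM to 408 and 376 CPM (6.43, SE 0.12, adjusted p = 5.39e-20), and SEMA3D, from the same family, rose from 4.53 and 4.27 to 117 and 129 CPM (4.81). SEMA3B fell from 23.2 and 21.2 to 0.823 and 1.30 CPM (-4.36), and SEMA5A, a membrane semaphorin, from 4.06 and 5.55 to 0.0343 and 0.121 CPM (-5.84). The IGF axis, which carries the growth signal that PAPPA modulates, had 11 higher and 1 lower of 18 tested genes (66.7%, median 0.47). PAPPA itself is among the 11, and the 1 lower gene is the protease HTRA1 (-5.23), whose levels are given above. IGFBP3, the main carrier of IGF in serum, rose from 218 and 198 to 659 and 462 CPM (1.43), and IGFBP7 from 21.3 and 15.1 to 296 and 226 CPM (3.84), the latter with exons that overlap POLR2B. STC2, an inhibitor of PAPPA, had 0.0296 and 0.339 against 4.42 and 2.79 CPM (4.19). In glutathione and peroxide defence, the pathway of MGST1, 10 genes were higher and 10 lower of 46 tested (43.5%, median 0.12). MGST1 itself is among the lower genes. GPX3, the secreted glutathione peroxidase, fell from 14.7 and 15.97 to 0.103 and 0.0303 CPM (-7.82), and GSTM4, a cytosolic glutathione transferase, from 159 and 147 to 11.8 and 17.3 CPM (-3.39). GSTM genes are near-identical copies, and the split of reads between them is uncertain. FTL, the ferritin light chain, had 1666 and 1472 against 1753 and 1699 CPM and did not pass the test.

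**Figure D3:**
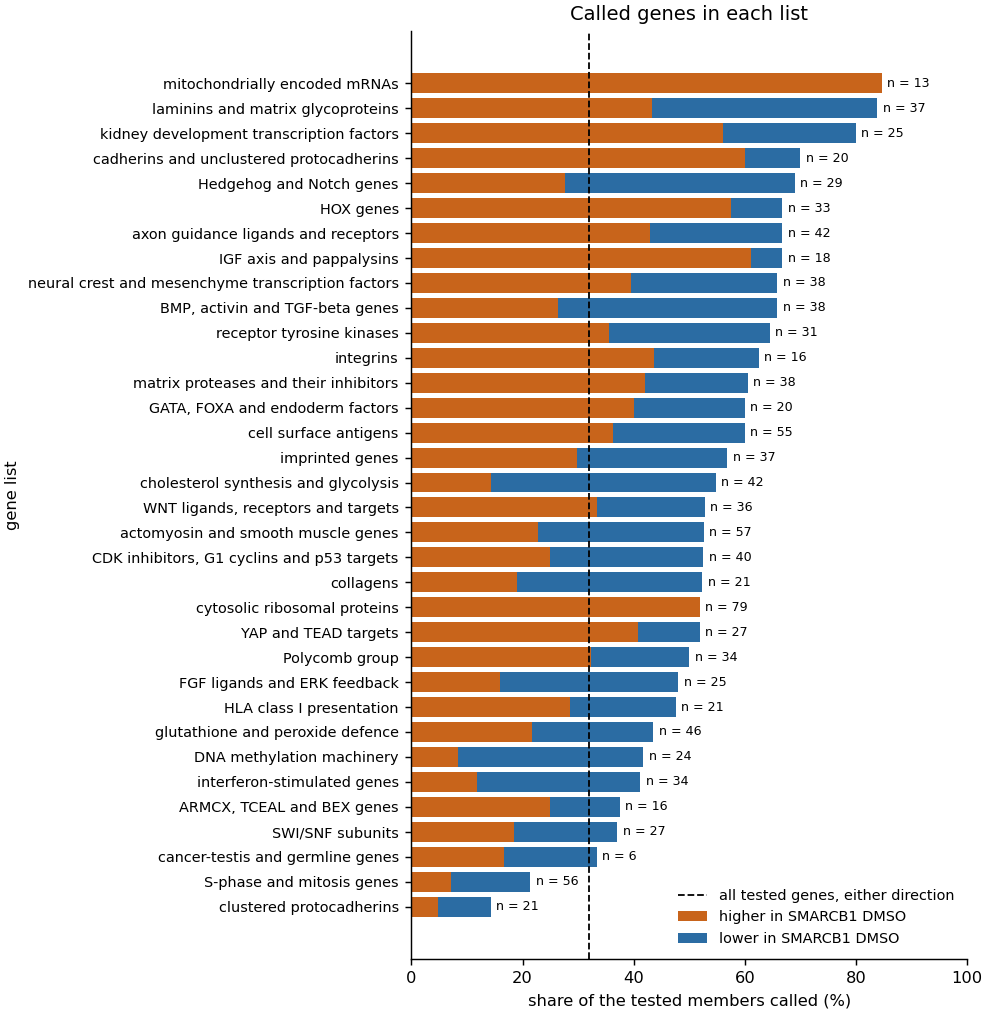
Share of the tested members of each of 34 gene lists, in percent, called higher (orange) or lower (blue) in SMARCB1 DMSO, with n the number tested and the dashed line at the 32.0% of all tested genes. Laminins and matrix glycoproteins (31 of 37 called) and kidney transcription factors (20 of 25) were called most often besides the mitochondrial mRNAs, and clustered protocadherins (3 of 21) least. The lists were chosen with earlier results of these data known.

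Transcription factors of the kidney and of the neural crest were called in both directions. Of 25 tested kidney development factors 14 were higher and 6 lower (80.0%, median 0.32). FOXC2 and FOXD1, forkhead factors of nephrogenic and stromal progenitors, rose from 3.61 and 2.63 to 25.7 and 23.7 CPM (2.99) and from 1.95 and 1.69 to 12.5 and 12.0 CPM (2.75). PAX2, a paired-box factor of the nephric lineage, fell from 7.11 and 10.0 to 0.72 and 1.30 CPM (-3.06). MECOM, a zinc finger factor of distal nephron and blood stem cells, had 1.78 and 1.30 against 15.5 and 28.5 CPM (3.85), with the SMARCB1 libraries far apart but both above the GFP line. Of 38 tested neural crest and mesenchyme factors 15 were higher and 10 lower (65.8%, median 0.08). RUNX2, the master factor of bone cells, had 0.118 and 0 against 9.57 and 9.64 CPM (7.34). MEF2C, a factor of muscle and craniofacial cells, fell from 25.6 and 23.3 to 0.549 and 0.485 CPM (-5.56), and ID4, an inhibitor of basic helix-loop-helix factors, from 37.0 and 39.4 to 0.823 and 1.21 CPM (-5.21). ZIC2, the neural crest factor of highest level per length, had 255 and 242 against 254 and 262 CPM, a difference of 0.06 that did not pass the test. GATA, FOXA and endoderm factors had 8 higher and 4 lower of 20 tested (60.0%, median 0.32), with GATA6 at 0.77 and 0.756 against 4.22 and 3.94 CPM (2.41) and GATA2, a factor of blood and urogenital cells, at 35.1 and 33.5 against 16.2 and 18.96 CPM (-0.96).

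HOX genes, which set position along the body axis, were mostly higher in the SMARCB1 line, with 19 higher and 3 lower of 33 tested (66.7%, median 0.39). Runs of higher genes lay in the HOXB and HOXD clusters. HOXB5 to HOXB9 formed a run of called genes at chr17:48591257-48633572 with a median of 2.53, in which HOXB9 rose from 15.9 and 15.8 to 100.3 and 93.3 CPM (2.61) and HOXB8 from 2.99 and 3.28 to 21.0 and 24.2 CPM (2.85). HOXB13, at the far end of the cluster, fell slightly, from 80.2 and 83.3 to 60.9 and 60.6 CPM (-0.43). HOXD8 had 0.237 and 0.313 against 2.98 and 4.55 CPM (3.75), and HOXD13 0.237 and 0.234 against 0.686 and 0.819 CPM (1.66), a call that was lost with DESeq2 and without GFP DMSO replicate 1, GFP DMSO replicate 2 or SMARCB1 DMSO replicate 2. HOX clusters hold overlapping transcripts, such as HOXB6 with HOXB3, so that their counts are uncertain.

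Imprinted genes were called in both directions in similar numbers. Of 37 tested imprinted genes 11 were higher and 10 lower (56.8%, median -0.11). PLAGL1, a zinc finger gene transcribed from the paternal copy, rose from 6.34 and 7.66 to 35.2 and 28.8 CPM (2.19), and DLK1, the paternally transcribed neighbour of MEG3, had 76 reads over the GFP DMSO libraries and 3 over the SMARCB1 DMSO libraries (ratio 21.8, 95% counting interval 7.19 to 108). Of 24 tested genes of the DNA methylation machinery 2 were higher and 8 lower (41.7%, median -0.11), a share near the background of 32.0%, and this total of 10 lay between 4 and 8 when a DMSO library was left out, with 4 without GFP DMSO replicate 2, 5 without SMARCB1 DMSO replicate 1 and 6 without GFP DMSO replicate 1. DNMT3B, a de novo methyltransferase, fell from 84.9 and 87.2 to 32.9 and 35.7 CPM (-1.33), and DNMT3A from 7.88 and 8.10 to 4.63 and 6.16 CPM (-0.56), the latter call being lost without GFP DMSO replicate 2 or SMARCB1 DMSO replicate 1. TET1, which oxidizes methylated cytosine, fell from 90.5 and 93.9 to 67.2 and 68.8 CPM (-0.44). Of the ARMCX, TCEAL and BEX genes, the X-linked family of ARMCX2, 4 were higher and 2 lower of 16 tested (37.5%), near the background, and TCEAL7 had 0.178 and 0.234 against 2.23 and 2.06 CPM (3.35). ARMCX2 itself is among the lower genes. Cancer-testis and germline genes were mostly without reads, with 6 of 71 tested and 1 called in each direction.

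Ligands and feedback genes of developmental pathways moved both ways. WNT genes had 12 higher and 7 lower of 36 tested (52.8%, median 0.23). DKK1, a secreted WNT antagonist, fell from 161 and 143 CPM to 0.583 and 0.182 CPM (-8.66, SE 0.19, adjusted p = 3.32e-19), and WNT11 from 20.8 and 24.4 to 1.58 and 1.00 CPM (-4.14), while WNT5A, the ligand of highest level per length, had 1167 and 1125 against 1361 and 1153 CPM and did not pass the test. BMP, activin and TGF-beta genes had 10 higher and 15 lower of 38 tested (65.8%, median -0.06), with BMP7 lower as above and BMP4, a related ligand, higher by 0.36 (585 and 501 against 746 and 648 CPM), a call that was lost with library totals (0.24), without GFP DMSO replicate 2 and without SMARCB1 DMSO replicate 1. TGFBR3, a co-receptor, rose from 7.58 and 8.88 to 49.5 and 39.9 CPM (2.44). Of 29 tested Hedgehog and Notch genes 8 were higher and 12 lower (69.0%, median -0.12). The Notch ligand JAG1 had 0.0888 and 0.104 against 5.08 and 6.07 CPM (5.79), and the Hedgehog effector GLI1 fell from 7.20 and 7.998 to 1.37 and 1.97 CPM (-2.17), with exons that overlap ARHGAP9. FGF ligands and ERK feedback genes had 4 higher and 8 lower of 25 tested (48.0%, median -0.08). SPRY2, an inhibitor of ERK signalling, rose from 0.178 and 0.313 to 13.0 and 11.5 CPM (5.60), while ETV5, an ERK-induced factor, fell from 128 and 137 to 42.4 and 37.5 CPM (-1.73). Of 27 YAP and TEAD targets 11 were higher and 3 lower (51.9%, median 0.21), with ANKRD1 at 0.178 and 0.0521 against 9.16 and 5.34 CPM (5.98) and CRIM1 at 422 and 443 against 985 and 815 CPM (1.06).

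Genes of the chromatin complexes and of the cell cycle gave shares of calls between 21.4 and 52.5%. Of 27 tested SWI/SNF subunits 5 were higher and 5 lower (37.0%, median 0.12), close to the background of 32.0%, and the count of 10 fell to 5 without GFP DMSO replicate 2. The 5 higher subunits include SMARCB1 itself, with 31 reads over the DMSO libraries of the line engineered to express it. BCL11A, a subunit of the BAF complex, rose from 27.6 and 31.3 to 53.7 and 63.9 CPM (1.00), and SMARCD3 fell from 31.0 and 28.5 to 21.5 and 23.2 CPM (-0.41). Polycomb genes had 11 higher and 6 lower of 34 tested (50.0%, median -0.01). PCGF5, a subunit of a variant PRC1 complex, had 0.503 and 0.365 against 9.37 and 8.04 CPM (4.32), and PHC2 29.0 and 26.96 against 45.1 and 51.7 CPM (0.79). In the group of CDK inhibitors, G1 cyclins and p53 targets 10 were higher and 11 lower of 40 tested (52.5%, median -0.07). CCND2, a G1 cyclin, rose from 0.888 and 0.651 to 28.9 and 32.7 CPM (5.33), and its partner kinase CDK6 fell from 474 and 514 to 199 and 154 CPM (-1.48). The cell cycle inhibitors CDKN1A (162 and 134 against 90.8 and 80.8 CPM, -0.79) and CDKN2A (8.62 and 6.49 against 4.08 and 3.37 CPM, -1.02) were lower. S-phase and mitosis genes, by contrast, had 4 higher and 8 lower of 56 tested (21.4%, median -0.04), below the background, and between 5 and 20 calls under other settings.

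Ribosomal protein genes and mitochondrial mRNAs were called in the higher direction alone, by small amounts, while metabolic genes moved both ways. Of 79 cytosolic ribosomal protein genes 41 were higher and none lower (51.9%, median 0.22), and RPS2, the highest per length, had 2018 and 2020 against 2315 and 2297 CPM without passing the test, which it passed with DESeq2 and with the replicate block. This count depends on the scaling, with 2 of 79 higher and a median of 0.11 when levels were set on library totals, a setting that moved the median of all genes to -0.10. Leaving out GFP DMSO replicate 2, GFP DMSO replicate 1 or SMARCB1 DMSO replicate 2 left 4, 19 or 15 calls. Of 13 mitochondrially encoded mRNAs 11 were higher and none lower (84.6%, median 0.45), with MT-CYB, an electron transport subunit, at 14450 and 14750 against 25810 and 20230 CPM (0.66). SMARCB1 DMSO replicate 1 had the highest value and also the highest mitochondrial share (27.9%), a share that counts the reads of these same mRNAs. Without that library the median of the 13 was 0.31, and the cause was not tested. In Dox 5 of the 11 mitochondrial mRNAs had the same call (median of the 13 at 0.25). Of the 41 ribosomal protein genes 17 had the same call in Dox (median of the 79 at 0.17). Of 42 tested genes of cholesterol synthesis and glycolysis 6 were higher and 17 lower (54.8%, median -0.17), and the total of 23 was 13 to 19 when a DMSO library was left out. The glucose transporters moved apart, with SLC2A1 falling from 588 and 654 to 180 and 136 CPM (-1.97) and SLC2A3 rising from 103 and 92.9 to 538 and 351 CPM (2.18). STARD4, a cholesterol carrier, fell from 52.6 and 52.0 to 8.16 and 3.19 CPM (-3.23), and LDHA, lactate dehydrogenase, had 846 and 877 against 949.7 and 933 CPM without passing the test.

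Immune and contractile genes gave mixed calls. Interferon-stimulated genes had 4 higher and 10 lower of 34 tested (41.2%, median -0.12), with IFITM2, a restriction factor of virus entry, falling from 104 and 95.2 to 18.2 and 16.9 CPM (-2.51). HLA class I presentation genes had 6 higher and 4 lower of 21 tested (47.6%, median 0.14). HLA-E rose from 10.7 and 11.2 to 21.0 and 19.1 CPM (0.87). Of 57 tested actomyosin and smooth muscle genes 13 were higher and 17 lower (52.6%, median -0.05). PDLIM3, a protein of muscle Z-discs, rose from 0.296 and 0.182 to 8.58 and 8.55 CPM (5.16), and HSPB7, a heart heat shock protein, fell from 6.66 and 6.17 to 0.0343 and 0.212 CPM (-5.60). ACTB, cytoplasmic actin, had 8740 and 9135 against 9250 and 9877 CPM and did not pass the test.

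Markers of other cell types were low in both lines, apart from single genes. All 13 epithelial markers were under 1 CPM, with a summed level of 2.03 to 2.37 CPM in the GFP and 1.70 to 1.85 CPM in the SMARCB1 DMSO libraries and 4 markers at 0. The summed level of 8 endothelial markers was 17.6 to 17.9 against 18.3 to 18.6 CPM, of which EGFL7 gave 96.2%, and that of 10 blood cell markers 2.87 to 3.93 against 3.46 to 4.19 CPM. The 13 neural and glial markers summed to 306 to 314 CPM in the GFP and 59.6 to 61.1 CPM in the SMARCB1 line, with 98.8% of it from MBP, a gene that also has transcripts outside myelin (304 and 312 against 59.1 and 56.8 CPM, -2.41), while 11 of the 13 were under 1 CPM. Of 8 skeletal muscle markers 5 were at 0 in the DMSO libraries, and the embryonic and perinatal myosin gene MYH8 made up most of the sum, with 0 and 0 against 2.33 and 2.27 CPM, at least 55.3-fold higher. Kidney tubule and podocyte markers summed to 63.4 to 63.9 against 99.4 to 103 CPM, led by SYNPO at 60.6 and 60.7 against 90.3 and 93.7 CPM (0.60), while PODXL, a podocyte surface protein, had 1.98 and 2.53 against 8.23 and 8.25 CPM (1.86) and 10 of the 12 were under 1 CPM.

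Differences were then laid along the chromosomes (build hg38). Over 12535 genes with at least 1 CPM the median was 0.01, chromosome medians ran from -0.05 to 0.09, and 26.7 to 40.4% of the genes of a chromosome were called. No chromosome as a whole moved by as much as the 10 Mb window described next. Among 290 windows of 10 Mb with at least 8 such genes the medians ran from -0.425 to 0.374, and 1 window, at 70 to 80 Mb of chromosome 6, lay at least 0.4 from the median of all genes (30 genes, median -0.425 in DMSO and -0.455 in Dox, 12 lower and 4 higher). Its genes moved unequally, with COL9A1 (-6.61), LINC00472 (47.8 and 53.2 against 1.61 and 1.52 CPM, -5.01) and SH3BGRL2 (80.7 and 83.8 against 10.5 and 11.1 CPM, -2.93) lower and OGFRL1 (131 and 125 against 1270 and 1239 CPM, 3.30) higher. The median of the window was -0.24 without SMARCB1 DMSO replicate 2, -0.30 without GFP DMSO replicate 2 and -0.25 for genes of at least 5 CPM, all short of 0.4.

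**Figure D4:**
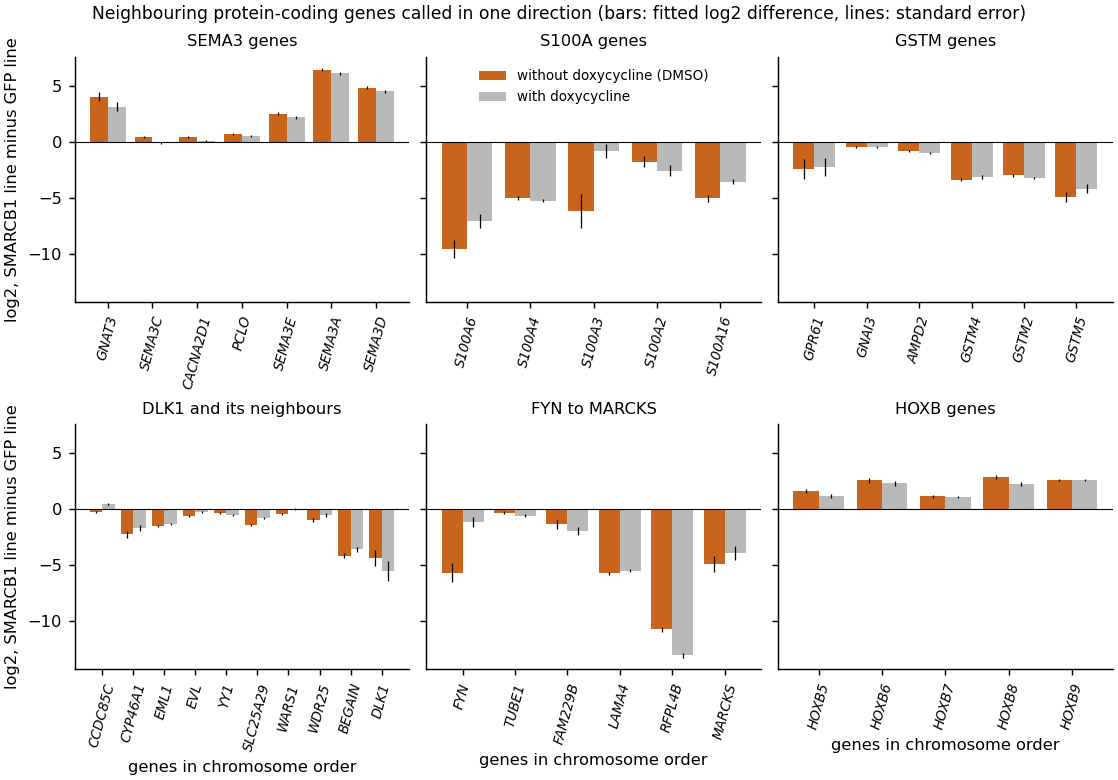
Fitted log2 difference between the lines of the genes in 6 runs, in chromosome order, without doxycycline (orange bars) and with it (grey bars), with vertical lines for the SE. The SE is derived from the test statistic and can be smaller than the counting error where reads are few. By the rule of a run its genes share a direction in DMSO, while their sizes differ, as TUBE1 (-0.34) beside LAMA4 (-5.76) shows.

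Single loci were described by runs, which by their rule hold only called genes of one direction. A shared direction and a median away from 0 are built in, so runs are not comparable with the windows. Of all tested genes 16.3% were called higher and 15.7% lower, and the number of runs to expect from these shares was not computed. A total of 99 runs of at least 4 neighbouring protein-coding genes were called in one direction, 50 higher and 49 lower, holding 470 genes. The semaphorin locus at chr7:80458635-85187056 formed a run of 7 higher genes (median 2.50, Dox 2.16): GNAT3 (4.01), SEMA3C (0.37), CACNA2D1, PCLO (0.65), SEMA3E (27.7 and 27.9 against 182 and 133 CPM, 2.50), SEMA3A and SEMA3D. Another run on chromosome 6, chr6:111660332-113863475, joined FYN, TUBE1, FAM229B, LAMA4, RFPL4B and MARCKS, with TUBE1, a tubulin inside the run, at 24.6 and 25.2 against 20.6 and 18.7 CPM (-0.34) beside larger differences of its neighbours. The call of TUBE1 was lost without GFP DMSO replicate 1, GFP DMSO replicate 2 or SMARCB1 DMSO replicate 2.

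Other runs held members of one gene family. The S100 genes at chr1:153534599-153613145, calcium-binding proteins that lie side by side, were lower in a run of 5 (median -5.06, Dox -3.59). S100A4 fell from 63.3 and 56.4 to 1.71 and 1.91 CPM (-5.04), and S100A6 had 2.31 and 3.34 CPM against 0 and 0, at least 59.1-fold lower. GSTM4, GSTM2 and GSTM5 formed the end of a run of 6 lower genes at chr1:109539872-109775428 (median -2.74). On chromosome 14 a run of 10 lower genes, from CCDC85C to DLK1 (chr14:99500190-100738224, median -1.21, Dox -0.67), ended next to MEG3 and MEG8, and BEGAIN in it fell from 15.96 and 16.7 to 0.72 and 1.06 CPM (-4.18). Zinc finger genes of chromosome 19, ZNF83 to ZNF816 at chr19:52594060-52962911, formed a run of 9 higher genes (median 1.03, Dox 1.05) that holds ZNF320. The run at chr2:171687409-173268015 (9 higher, median 1.03) joined the homeobox genes DLX1 (9.15 and 10.2 against 43.0 and 49.0 CPM, 2.25) and DLX2 (1.70), the integrin ITGA6 and the kinase MAP3K20 (2.84 and 3.05 against 60.2 and 63.8 CPM, 4.39). Members of small difference did not hold their calls in every fit, with SEMA3C lost without GFP DMSO replicate 2 or SMARCB1 DMSO replicate 1, CACNA2D1 without the latter, ZNF816 without replicate 2 of either DMSO group, FAM229B without SMARCB1 DMSO replicate 2, and CCDC85C without a filter, either GFP DMSO library or SMARCB1 DMSO replicate 1. Neighbouring genes can share overlapping transcripts, and the strand setting of the counting is not given in the sources used here.

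The same lines with doxycycline gave 6185 called genes (38.8%) between SMARCB1 Dox and GFP Dox, in libraries that the DMSO comparison did not use, although one estimate of the spread served both. Of the 5105 genes called in DMSO, 3693 were called in the same direction in Dox, which is 72.3% of the DMSO calls and 59.7% of the Dox calls, and 72 in the opposite direction. Of the 1662 called genes over 2-fold, 1393 had the same call. Values for some genes of large difference stood close together, as for SEMA3A (6.43 in DMSO, 6.10 in Dox), NT5E (6.50, 6.92), COL1A1 (-4.81, -4.44), DKK1 (-8.66, -8.78) and HOXB9 (2.61, 2.55). Some list medians changed sign, as for Hedgehog and Notch (-0.12 in DMSO, 0.29 in Dox) and interferon-stimulated genes (-0.12, 0.27). That of GATA, FOXA and endoderm factors went from 0.32 to 0.93. Others stayed close, as for integrins (0.44, 0.53) and for cholesterol synthesis and glycolysis (-0.17, -0.19). In Dox the line and the induced protein cannot be told apart. A test of the change in line difference between DMSO and Dox called 750 of the 15931 tested genes. PDGFRA was one, with a line difference of -7.37 in DMSO and -5.62 in Dox (adjusted p of the change = 0.00148), and DNMT3B another, at -1.33 and -0.72 (adjusted p = 0.00432).

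**Figure D5:**
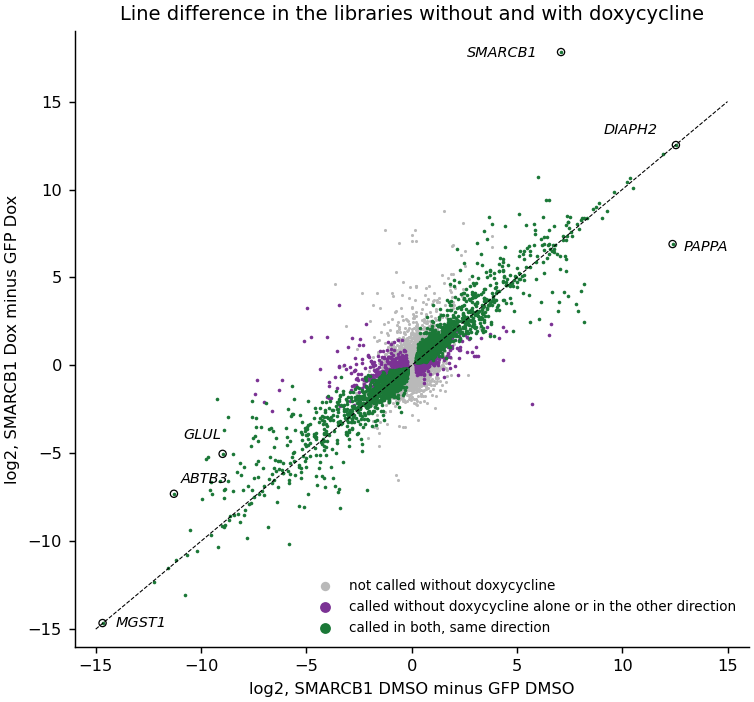
Log2 difference between the lines in DMSO (horizontal) and in Dox (vertical) for each tested gene, coloured by its calls, with the dashed line at equal differences. Most called genes lie near that line, while PAPPA, ABTB3 and GLUL lie toward smaller differences in Dox and SMARCB1, induced in Dox, stands at 17.82.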

How the data were processed

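Total RNA of G401 cells was sequenced in 4 groups of 2 libraries. The authors aligned reads with STAR to hg38 and deposited HTSeq read counts per gene (intersection-strict over exons, GENCODE v42). Versions and the strand option are not given in the sources used here, and the labels and the methods name different library kits. Cells of 6 plates were pooled per condition. Deposited counts were used as they were, without the 5 closing rows that name no gene (27 to 29.3% of reads).

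Genes that passed the default filterByExpr were fitted in edgeR 4.0.16 (R 4.3.3, limma 3.58.1) with TMM scaling, 1 mean per group over all 8 libraries and the quasi-likelihood test, with Benjamini-Hochberg adjustment over 15931 genes and a threshold of 0.05. In counts simulated for this comparison over 15931 genes with 200 changed, 63% of 1.5-fold and 71% of 2-fold changes were recovered, with 3 false calls. The changed genes were drawn from those above a minimum mean count. They were a far smaller share than the 32.0% called in the data, so these rates need not hold for the data. Alternatives were DESeq2 1.42.0, other scalings, no filter, only the 4 DMSO libraries, the replicate number as a term, and each DMSO library left out. Counting intervals are exact 95% binomial intervals of a ratio of reads, floors are 3 reads over a group, and both cover counting error only. Gene positions, exon lengths and overlaps came from GENCODE v44 on hg38, and promoters from RefSeq. Runs are at least 4 neighbouring protein-coding tested genes called in one direction. Levels of different genes were compared per exon length. The SE of a log2 difference was its size divided by the square root of the F statistic of the quasi-likelihood test.

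Genes were named by a rule: SMARCB1, MGST1, PAPPA and ARMCX2, the 10 highest and 10 lowest called genes at 5 CPM or more, genes of few or no reads in one line, in each list up to 4 called members of largest difference and the member of highest level per length, and the genes of named windows and runs. The members and lists were chosen with earlier results of these data known. List medians were the same with genes at 0 reads set at their bound, apart from the skeletal muscle markers, of which 1 was tested. Genes of chromosome Y were not used by name. A few genes, and runs that hold them, are not reported here.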

Additional observations from a re-analysis of the deposited data

Results flagged for a closer look

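Groups of 2 libraries allow no test for a single library that stands apart. A change of the line difference between DMSO and Dox was called for 750 of all 15931 tested genes. The 145 tested genes named in the text include many chosen for a large line difference, so their share is not directly comparable. Of these 145, 17 passed at an adjusted p under 0.05 over all tested genes (edgeR quasi-likelihood test), all with n = 2 libraries per group. For each, the SMARCB1 line changed with doxycycline (adjusted p of 0.00986 or less) while the GFP line had an adjusted p of 1.

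The lines came closer in Dox for 12 of the 17. For 4 of these the value rests on few reads: ABTB3 (-11.29 in DMSO and -7.30 in Dox, a change of 3.98, adjusted p = 0.00521) had 0 and 1 reads in the SMARCB1 DMSO and 8 and 15 in the SMARCB1 Dox libraries, GLUL (-8.97 and -5.03, a change of 3.94, adjusted p = 0.00898) had 0 and 1 against 8 and 14, and FYN (-5.69 and -1.18, a change of 4.51, adjusted p = 0.0149) had 1 read over the SMARCB1 DMSO libraries. PAPPA, the fourth (12.39 and 6.90, a change of -5.49, adjusted p = 0.0381), rests on 0 and 0 reads in the GFP DMSO and 2 and 5 in the GFP Dox libraries, so that its fitted change is no bound. The receptor PDGFRA changed by 1.75, the semaphorin SEMA3B by 1.39, the factor ID4 by 1.34, the surface protein MCAM by 1.30, the kinase CDK6 by 0.85, the methyltransferase DNMT3B by 0.61, the binding protein IGFBP3 by -0.72 and OGFRL1 by -0.56, each toward a smaller difference.

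The lines moved farther apart for PODXL (1.86 and 3.13, a change of 1.27) and MAP3K20 (4.39 in DMSO, a change of 0.61). The sign of the difference turned for CCDC85C (-0.25 and 0.41, a change of 0.67), FGFR2 (0.14 and -0.33, -0.47) and SEMA3C (0.37 and -0.13, -0.51), all of them under 0.5 in both conditions.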

How the results depend on the processing

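The 5105 called genes became 4617 with DESeq2, 4885 with the 4 DMSO libraries alone, 5120 with DESeq2 size factors, 5390 with library totals, 5089 with mitochondrially encoded genes left out, 5029 without a filter and 3452 to 4489 when a DMSO library was left out. With library totals 32.1% of calls were higher, against 50.9%, with 1732 genes higher in place of 2600, and the median of all genes moved from 0.01 to -0.10. Without a DMSO library 1682 to 2325 genes were higher, 1682 without GFP DMSO replicate 2. With 1 library left in a group, that library is assumed to vary like the other groups.

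Replicate numbers are not stated to pair samples, and same-numbered deviations correlated at 0.233 between the DMSO groups (0.122 to 0.393 in other pairs of groups). The replicate block called 5977 genes, among them all 5105, with 20 S-phase and mitosis genes in place of 12 and 7 clustered protocadherins in place of 3. Those 3 were 6 with the DMSO libraries alone, 5 with library totals, 5 without a filter and 1 to 3 without a library. S-phase and mitosis calls were 19 with library totals and 5 to 13 without a library, and ribosomal protein calls 2 and 4 to 40 in place of 41. Without a library the calls were 4 to 8 for DNA methylation genes, 13 to 19 for cholesterol synthesis and glycolysis, 12 to 18 for Hedgehog and Notch, 5 to 9 for SWI/SNF, 11 to 14 for Polycomb and 13 to 19 for receptor tyrosine kinases. Of 439 list counts under alternatives, 415 stayed within 1.5 times. Windows at least 0.4 from the median numbered 0 to 2 without a library, 0 for genes of at least 5 CPM, 7 at 5 Mb and 2 when shifted, in place of 1. The shifted windows lay at the starts of chromosomes 3 and 8, and none of chromosome 6 was among them. Without SMARCB1 DMSO replicate 2 the window found was at 80 to 90 Mb of chromosome 11 in place of that on chromosome 6. Genes of few or no reads numbered 9 at exactly 0 reads and 81 from 1 CPM, in place of 27. For 655 named genes the alternatives lost 490 calls, gained 37 and turned no direction; the cause was not tested. With 2 libraries a group, genes of a few reads are the least precise.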
